A study of Salmo salar with 64 samples.

Results

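The pituitary and the brain of female Atlantic salmon were compared before the fish received long days, using messenger RNA counts of every annotated gene. The members are the 4 pituitary and the 4 brain libraries of time point T1, 8 of the 64 libraries of the series, and all 81574 gene entries of the count table, of which 33763 passed a filter on low counts and were tested. The fish were broodstock from 1 management group, about 3 years old, and T1 was sampled just before a long-light photoperiod that brings on sexual maturation in captive stock. No strain, genetic change or drug is named, and both groups had the same treatment up to T1. The study describes 4 fish at each time point with several tissues taken, so both groups are read as coming from the same 4 fish. The main test did not pair the libraries, since no label states which ones share a fish. The brain samples came from several regions, and the regions taken were not the same from fish to fish, so that brain here means brain tissue of varying make-up, and the study kept these samples out of its own comparisons. T2, T3 and T4 were sampled from other fish on long days, at intervals of 2 weeks, and are used only to see whether differences found at T1 recurred.

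The pituitary makes the protein hormones that govern growth, stress responses, skin colour, metabolism, salt balance and reproduction, each in its own cell type. In teleost fish, neurons of the brain send axons directly into the gland, and peptides released there set how much hormone is secreted. The brain is built mostly of neurons, of glia that sheathe and feed them, and of vessels and membranes. The comparison shows which genes were higher in the gland and which in brain tissue, not which mark either among all tissues. Day length acts on this axis through the retina, the pineal organ, light-sensitive brain cells and local thyroid hormone conversion.

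Library totals at T1 were 24.8 to 28.9 M (mega) counts in the pituitary and 23.2 to 51.9 M in the brain, where replicate 2 was the deepest. Levels are given as CPM, counts per M of the library total after TMM scaling, and are not corrected for gene length. The 4 pituitary libraries were alike, with Spearman correlations across the tested genes of 0.979 to 0.984 over 6 pairs and 74 to 116 genes over 4-fold apart in a pair. The 4 brain libraries were not, with correlations of 0.858 to 0.936 and 801 to 2663 genes over 4-fold apart. Among genes with a mean of at least 10 CPM, the median coefficient of variation was 10.04% in the pituitary (13761 genes) and 24.6% in the brain (15002 genes). Genes are not independent replicates, so these values describe the libraries.

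As a share of counts, the brain libraries were far apart in ependymin, a secreted glycoprotein known in fish from the membranes and fluid around the brain. Together epd and epd2 took 0.201% and 0.0428% of all counts in brain replicates 1 and 2, but 19.7% and 15.5% in replicates 3 and 4. The col1a1a gene, a chain of type I collagen from connective tissue, stood at 15.3, 6.49, 503 and 429 CPM in brain replicates 1 to 4. The cerebellin gene cbln12 stood at 950 CPM in brain replicate 2 and at 12.5, 1.46 and 0.357 in replicates 1, 3 and 4. In brain replicate 4 mbpa, which encodes myelin basic protein, was 421 CPM against 1992 to 4295 in the other replicates, while the hypothalamic peptide gene oxt was 265 CPM against 0.368 to 1.49. The main comparison was therefore also run with brain replicates 3 and 4 left out and with brain replicates 1 and 2 left out. The part of sampled region in the differences between tissues was not tested.

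**Figure D1:**
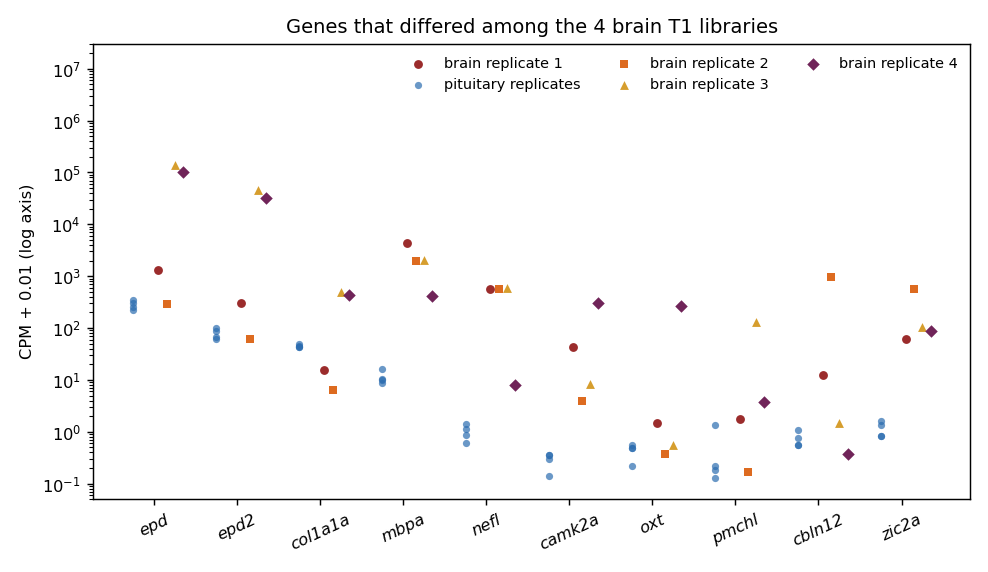
CPM plus 0.01 on a log axis for 10 genes in each T1 library, with the 4 pituitary libraries as small blue points and the 4 brain libraries as separate symbols. Brain replicates 3 and 4 lie far above replicates 1 and 2 for epd, epd2 and col1a1a, replicate 2 stands alone for cbln12, and replicate 4 stands alone for oxt and nefl.

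The first question was how far apart the gland and the brain were. By edgeR's quasi-likelihood F test, 12275 genes differed at a false discovery rate of 0.05 (Benjamini-Hochberg) and by more than 1 log2 unit, which is 36.4% of those tested. Of these, 4662 (13.8% of tested genes) were higher in the pituitary and 7613 (22.5%) were lower, and the median log2 fold change of all tested genes was -0.03. Higher genes made up 38.0% of the calls under TMM scaling but 22.04% when libraries were scaled by their totals alone, where the median of all genes was -0.47. The deposited log2 values, which are also scaled by totals, gave 22.5% and a median of -0.34. The libraries of the groups did not overlap for 50.6% of all tested genes and for 11241 (91.6%) of the called ones.

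Differences were large on both sides. In the pituitary 696 called genes were over 16-fold higher and 85 were over 256-fold higher. In the brain 1946 and 169 genes passed these folds. Scaled by library totals, 1980 (42.5%) of the genes called higher in the pituitary lay above all 12 other T1 libraries, ovary and liver included. Of those called higher in the brain 4599 (60.4%) did so. The calls rest on TMM scaling, while scaling by totals moved the median log2 fold change to -0.47, against the pituitary. These shares are therefore not evenly comparable between the tissues. Of 29538 tested protein-coding genes 13.4% were higher in the pituitary and 23.0% were lower, whereas of 780 tested long noncoding RNA genes 21.3% were higher and 17.9% were lower. With brain replicates 3 and 4 left out, 14805 genes were called, and with replicates 1 and 2 left out 13172 were. Of the 12275 genes called with all libraries, 9410 (76.7%) were called in the same direction in both reduced fits, and 8 were called in the opposite direction in either. Each reduced fit reuses all pituitary libraries and part of the brain libraries, so this agreement is partly built in.

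**Figure D2:**
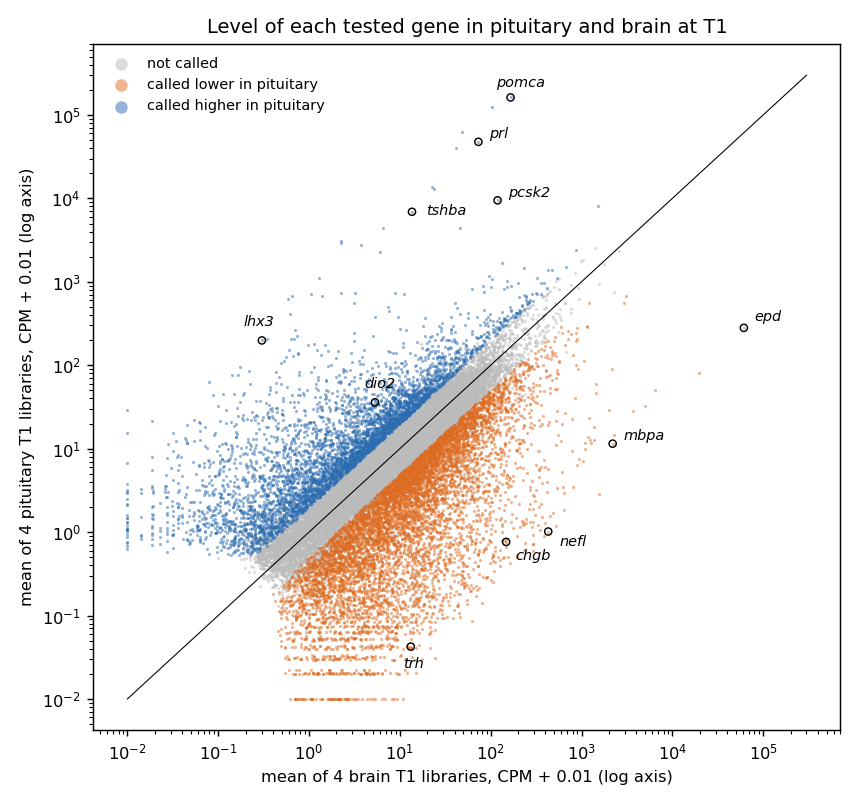
Mean CPM plus 0.01 of the 4 pituitary libraries against that of the 4 brain libraries for each of the 33763 tested genes, on log axes, with called genes in colour and the line of equal level. The hormone genes pomca, prl and tshba and the factor lhx3 lie far above the line, while nefl, mbpa, chgb and epd lie far below it.

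A few genes held much of the RNA counted in the pituitary. The 9 listed hormone genes took 18.01% to 21.6% of all counts in a pituitary library and 0.0175% to 0.0464% in a brain library. The 10 genes with the most counts took 40.0% to 43.5% of all counts in a pituitary library, against 3.95% to 23.4% in a brain library. First was pomca, the precursor of corticotropin and melanocyte-stimulating hormone, with 15.1%, 14.6%, 9.95% and 15.5% of counts in pituitary replicates 1 to 4. The next were LOC100169856 (mean 10.6%), LOC100136491 (5.36%), prl (4.11%) and LOC100510784 (3.46%), and the LOC entries carry placeholder symbols with no role given. The prolactin gene prl varied most among these, with 4.03%, 4.41%, 7.42% and 0.575%, so that replicate 4 held far less of it. LOC100136588, listed with the synonym gh for growth hormone, took 1.16%, LOC106607462 took 1.12%, the prohormone convertase gene pcsk2 0.809% and tshba 0.602%. The other gene of the first 10 was LOC106599082, a long noncoding RNA gene, with 0.693% of counts and a log2 fold change of 2.41 ± 0.35 (edgeR adjusted p = 0.00066, with errors of fold changes given as SE throughout).

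All 9 hormone genes of the list were called higher in the pituitary, beside 13.8% of tested genes, and none overlapped the brain libraries. Their median log2 fold change was 9.34. In bulk tissue, fewer cells of a type and less RNA per cell cannot be told apart, here and in the results that follow. In CPM, pomca stood at 187167, 173915, 109330 and 178706 in the pituitary and at 183, 82.7, 207 and 188 in the brain (log2 fold change 9.94 ± 0.70, edgeR adjusted p = 2.6e-05). All pituitary values lay far above all brain values, and replicate 3 was the lowest of the gland. The thyrotropin beta gene tshba stood at 6371, 4765, 14415 and 2093 CPM in the pituitary and at 14.4, 9.43, 10.1 and 20.4 in the brain (log2 fold change 8.99 ± 0.78, edgeR adjusted p = 6.0e-05; 8.36 without pituitary replicate 3). The gland's libraries were far apart for tshba, but none came near the brain.

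The gonadotropin beta genes, whose products drive the ovary, stood below the other listed hormone genes in the pituitary at T1. The follicle-stimulating hormone beta gene fshb stood at 327, 791, 892 and 909 CPM in the pituitary and at 2.63, 1.98, 2.09 and 2.29 in the brain. The luteinizing hormone beta gene lhb stood at 202, 402, 363 and 76.9 CPM in the pituitary and at 0.760, 0.704, 0.764 and 0.4999 in the brain. Both were called, at log2 fold changes of 8.35 ± 0.42 and 8.57 ± 0.62. The alpha subunit genes glha1 and glha2, whose products pair with these beta chains, averaged 2752 ± 553 and 4428 ± 1884 CPM (SD, n = 4) in the pituitary. Their log2 fold changes were 9.53 and 9.41. Somatolactin beta, a fish hormone of the growth hormone and prolactin family encoded by smtlb, had the highest fold change of the list, 10.43 ± 0.53, with 4124, 3408, 1719 and 3102 CPM in the pituitary.

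Hormone transcripts were counted in every brain library at a small and similar share of the pituitary level. Over the 9 genes the brain mean was 0.0727% (smtlb) to 0.308% (fshb) of the pituitary mean. In the ovary and liver libraries of T1 the same genes stood at 0.137% to 0.471% and at 0.0355% to 0.276% of the pituitary level, scaled by library totals. The raw counts of pomca in brain replicates 1 to 4 were 5300, 5175, 5970 and 5276, and those of smtlb were 74, 71, 76 and 74, although the totals of these libraries differed by 2.23-fold. LOC100169856 likewise gave 3557, 2899, 3575 and 3441 counts. In the liver, prl gave 9, 2213, 3456 and 658 counts. The source of these low counts was not tested.

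**Figure D3:**
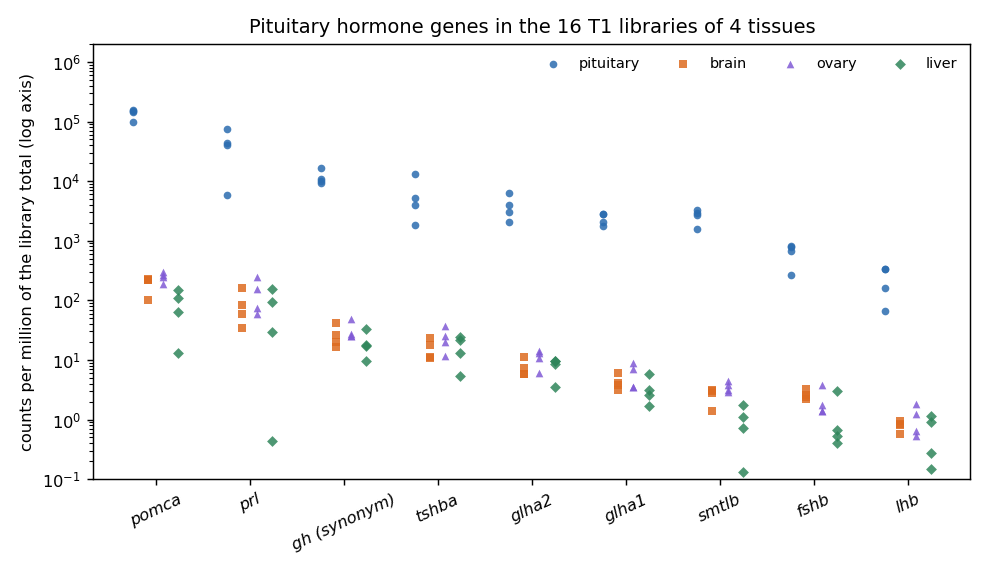
Counts per M of the library total, on a log axis, for the 9 listed hormone genes in the 16 T1 libraries of pituitary, brain, ovary and liver, 1 point a library. The pituitary lies far above the other tissues for each gene, and brain, ovary and liver lie close together except for single low liver libraries.

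Transcription factors that build the gland or keep its cells in their identity were the next group. Of 13 tested members 8 were higher in the pituitary (13.8% of all tested genes were), none was lower (22.5% of all) and 5 were not called, with a median log2 fold change of 3.65. The LIM factor gene lhx3, needed for the formation of most hormone cells, stood at 213, 199, 192 and 190 CPM in the pituitary and at 0.138, 0.112, 0.313 and 0.607 in the brain (log2 fold change 9.47 ± 0.55, edgeR adjusted p = 1.3e-05; 10.11 without brain replicate 4). The homeobox gene pitx1 stood at 197, 224, 210 and 191 CPM against 1.42, 0.400, 0.347 and 0.4999 (8.28 ± 0.52; 8.94 without brain replicate 1). Both were even across the 4 pituitary libraries. The gonadotrope factor gene nr5a1b, which encodes steroidogenic factor 1, had 18.8, 24.8, 29.9 and 20.8 CPM against 0.0346, 0.0160, 1.18 and 0.178, a difference of 6.15 log2 units that became 8.44 without brain replicate 3.

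The sine oculis genes six1a, six2a and six3a and their partner eya1 were also higher in the pituitary, but their brain level moved with the brain library. For six3a the brain values were 5.29, 1.07, 42.4 and 29.9 CPM against 168, 174, 134 and 151 in the pituitary, so replicates 3 and 4 lay nearer to the gland. Its log2 fold change was 3.00 ± 0.93 (edgeR adjusted p = 0.025), and without brain replicate 1 it was 2.68 with an adjusted p of 0.054. The differences of six1a, six2a and eya1 were 5.67, 4.47 and 3.65 log2 units, and without brain replicate 3 those of six1a and six2a were 6.37 and 5.07. The related six6a was not called, at 2.14 ± 1.12 with an adjusted p of 0.14 (3.05 without brain replicate 4). The stem and progenitor factor gene sox2 was also uncalled, at 64.7 ± 6.21 CPM (SD, n = 4) in the pituitary and 45.0 ± 4.95 in the brain. With brain replicates 3 and 4 left out 10 factors were higher, and with replicates 1 and 2 left out 9 were higher and 1 was lower.

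Receptors through which brain peptides, steroids and thyroid hormone act formed a further list. Of 8 tested members 3 were higher in the pituitary and 3 were lower, beside 13.8% and 22.5% of all tested genes, with a median log2 fold change of 1.38. The ghrelin receptor gene ghsr, through which growth hormone release is stimulated, stood at 5.83, 5.03, 6.51 and 5.80 CPM in the pituitary and at 0.346, 0.400, 0.903 and 0.429 in the brain (3.48 ± 0.34, edgeR adjusted p = 1.0e-04). The somatostatin receptors went opposite ways, with log2 fold changes of 3.33 ± 0.51 for sstr2a and -5.30 ± 0.76 for sstr1a. The sstr1a values were 0.257, 0.0479, 0.156 and 0.341 CPM in the pituitary and 2.59, 15.1, 10.9 and 3.75 in the brain.

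The oestrogen receptor gene esr1 was higher in the pituitary by 1.99 ± 0.57 log2 units (edgeR adjusted p = 0.018), and without brain replicate 4 by 2.60. Its relative esr2a had 9.34, 14.2, 15.0 and 14.0 CPM in the pituitary and 0.242, 0.192, 6.18 and 4.50 in the brain, yet was not called (2.25 ± 0.97, adjusted p = 0.082). The esr2a gene was called without brain replicate 3 (3.07, adjusted p = 0.038), by DESeq2 (0.027) and edgeR's exact test (0.049), on the log2 values (0.021), and both with brain replicates 3 and 4 left out (5.88) and with replicates 1 and 2 left out (1.34). The thyroid hormone receptor gene thrb was at 132 ± 15 CPM against 77.3 ± 11.3 (SD, n = 4), below the fold threshold, and tr-alpha was lower in the pituitary (-2.203 ± 0.53), at 0.171 to 1.05 CPM against 1.89 to 4.87. The receptor gene adcyap1r1b, for the peptide PACAP, was lower as well (-1.81 ± 0.37).

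Genes of prohormone processing and secretory granules came next. Of 11 tested members 6 were higher in the pituitary, against 13.8% of all tested genes, and 2 were lower, a share near the 22.5% of all, with a median of 1.62. The convertase gene pcsk2, whose enzyme cuts hormone precursors at paired basic residues, stood at 10029, 8382, 6817 and 12682 CPM in the pituitary and at 90.7, 130, 66.2 and 190 in the brain (6.31 ± 0.47, edgeR adjusted p = 3.1e-05). The other convertase gene, pcsk1, went the opposite way, with 0.428, 1.68, 0.701 and 0.937 CPM in the pituitary and 21.9, 6.76, 6.39 and 14.5 in the brain (-3.73 ± 0.56). The groups did not overlap for either gene.

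The granins, acidic proteins that pack granules, split in the same manner. The chga gene was 381, 388, 338 and 389 CPM in the pituitary against 79.2, 86.7, 77.9 and 127 in the brain (2.01 ± 0.20). In contrast, chgb was 0.428, 0.574, 0.857 and 1.15 CPM in the pituitary against 76.7, 302, 21.7 and 191 in the brain (-7.61 ± 0.91, edgeR adjusted p = 0.00025; -6.98 without brain replicate 2). The granin gene scg2b was higher in the pituitary by 1.62 ± 0.25 log2 units, the amidating enzyme gene pam by 2.45 ± 0.29, the granule membrane gene ptprnb by 2.77 ± 0.23 and the vesicle gene rab3d by 2.82 ± 0.27. The granule priming gene cadpsa was not called, at 0.72 ± 0.20. Nor were ptprn2 (-0.62 ± 0.28) and the granin gene scg2, at 79.85 ± 11.32 CPM in the pituitary against 79.78 ± 23.9 (SD, n = 4). Counting kept only uniquely mapped reads, so these values hold for the named copies and salmon carry further copies of most such genes.

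Genes for peptides made by neurons were mostly higher in the brain. Of 13 tested members 11 were lower in the pituitary, beside 22.5% of tested genes, and none was higher, with a median log2 fold change of -6.73. Another 8 entries fell below the filter on low counts. A gene near 0 in the gland passes that filter only through the brain libraries, so for such members a lower call was nearly fixed. Thyrotropin-releasing hormone, encoded by trh, was 0, 0.0479, 0.0389 and 0.0426 CPM in the pituitary and 18.9, 10.8, 7.50 and 15.5 in the brain (-8.50 ± 0.54, edgeR adjusted p = 1.7e-05). With 3 counts in all 4 pituitary libraries, its ratio was 393 (exact 95% counting interval 134 to 1907). The enkephalin gene penkb was 0.514, 0.814, 0.623 and 0.426 CPM against 51.6, 163, 61.7 and 64.1 (-7.16 ± 0.50), and the tachykinin gene tac1 was 0.0857, 0.144, 0.312 and 0.213 against 59.9, 101, 65.7 and 6.82 (-8.22 ± 0.93). For each of the 3 genes every brain library lay above every pituitary library.

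For other peptides the size of the difference depended on single libraries. The calls of npy, pdyn, sst1.1 and tac3a were kept with any 1 library left out, but those of oxt and pmchl were not. The gene cart1 was not called with all libraries (-0.21). It was called lower with brain replicates 3 and 4 left out (-1.14) and higher with brain replicates 1 and 2 left out (2.51). The oxt gene, whose peptide belongs to the oxytocin family, was called at -7.27 ± 2.36 log2 units, but without brain replicate 4 the difference was -0.87 with an adjusted p of 0.24. The melanin-concentrating hormone gene pmchl was 1.76, 0.160, 129 and 3.75 CPM in the brain, and its difference of -6.22 was -2.04 (adjusted p = 0.16) without brain replicate 3. The oxt call was also lost without any 1 pituitary replicate (adjusted p of 0.073 to 0.078), and the pmchl call without pituitary replicate 1, 3 or 4 (0.081 to 0.083). The feeding peptide gene npy was 26.7, 4.05, 1.15 and 0.893 CPM in the brain, and its difference of -5.54 became -3.54 without brain replicate 1. The dynorphin gene pdyn was -5.68 (-4.79 without brain replicate 4), the somatostatin gene sst1.1 was -6.99 (-5.82 without brain replicate 3), and tac3a, with 1 count in the pituitary and a ratio of 217 (38.7 to 8607), was -7.62 (-9.48 without pituitary replicate 3, which held that count).

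All 17 tested neuron and synapse genes were lower in the pituitary, against 22.5% of all tested genes, and 16 of them did not overlap, against 50.6% of all, with a median log2 fold change of -5.27. The exocytosis gene snap25a was 0.642, 0.574, 0.351 and 0.384 CPM against 81.7, 134, 28.4 and 236 (-7.94 ± 0.74, edgeR adjusted p = 8.2e-05), while the synaptic vesicle gene sypa differed less, at 77.2 ± 8.3 CPM in the pituitary and 259 ± 71 in the brain (-1.75 ± 0.23). The GABA-making enzyme gene gad2 differed by -3.35 ± 0.45. The neuronal factor gene neurod6a gave no count in any pituitary library and 1.66, 2.77, 4.34 and 4.03 CPM in the brain, at least 99.6-fold higher against a floor of 3 counts over the group.

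The order of neuron genes changed between brain libraries. Neurofilament light chain, encoded by nefl, was 557, 570, 586 and 7.93 CPM, and neurofilament medium chain, encoded by nfm, was 2095, 2123, 1846 and 125, so replicate 4 was low in both. The kinase gene camk2a, abundant in forebrain neurons of vertebrates, was 43.6, 3.90, 8.51 and 306 CPM, so there replicate 4 was high (-8.33 ± 1.63, and -6.04 without it). The glutamate transporter gene slc17a6a was 59.1, 13.8, 29.7 and 216 CPM in the brain and 0.0857, 0, 0.234 and 0.213 in the pituitary (-9.13 ± 1.19, and -7.91 without brain replicate 4). Of 4 tested genes of monoamine and acetylcholine neurons 2 were lower in the pituitary, beside 22.5% of all tested genes, and 2 were not called. The ache gene, for the enzyme that breaks down acetylcholine, was lower (-3.68 ± 0.22). The serotonin enzyme gene tph2 was lower too (-8.01 ± 1.93), with 31.6, 0.607, 37.0 and 0.321 CPM in the brain (-9.84 without pituitary replicate 3). Its difference thus rested on brain replicates 1 and 3. The call was lost by limma on the log2 values, and only 6 of the fits with 1 library left out tested the gene.

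Genes of glia were mostly lower in the gland as well. Of 13 tested members 11 were lower in the pituitary (22.5% of all tested genes), none was higher, and the median was -4.95. Myelin basic protein, encoded by mbpa, was 16.4, 10.2, 10.6 and 8.65 CPM in the pituitary and 4295, 1992, 2098 and 421 in the brain (-7.58 ± 0.76, edgeR adjusted p = 0.00012). The myelin genes plp1b (-6.78 ± 0.70) and mpz (-6.42 ± 0.75) had the same order of brain libraries, with replicate 1 highest and replicate 4 lowest. The water channel gene aqp4 of astroglia was 86.5, 44.6, 19.7 and 13.5 CPM in the brain and 0.0428 to 0.390 in the pituitary (-7.72, and -7.06 without brain replicate 1). The calcium-binding s100b and the fatty acid carrier fabp7, which mark radial glia, were called lower (-4.58 and -4.37) but still stood at 60.2 ± 18.2 and 40.7 ± 7.67 CPM (SD, n = 4) in the pituitary. The cnp gene, known from myelin-forming cells in mammals, was not called, at 180 ± 17 against 245 ± 57 CPM.

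Genes of cell types found in both tissues were read next. Of 10 tested microglia and leukocyte genes 3 were lower in the pituitary, a share near the 22.5% of all tested genes, and none was higher. Without brain replicate 2 the lower ones numbered 5. With brain replicates 3 and 4 left out 2 were higher and 2 were lower. With brain replicates 1 and 2 left out 1 was higher and 6 were lower. The integrin gene itb2 differed by -2.09 ± 0.37 with all libraries and by -2.34 without brain replicate 2. Summed over the list, the level was 464 to 559 CPM in the pituitary and 847, 486, 2770 and 1961 CPM in brain replicates 1 to 4. None of 7 tested erythrocyte genes and none of 9 tested ovary and liver marker genes was called by edgeR's quasi-likelihood test, its exact test or DESeq2, and 0 of either list had an unadjusted p under 0.05. The erythrocyte sum ran from 44.8 to 448 CPM in the pituitary and from 52.8 to 440 in the brain. These ranges were wide and overlapped almost wholly. With brain replicates 3 and 4 only, 1 erythrocyte gene and 2 ovary and liver markers were called lower in the pituitary.

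Of 11 vascular and connective tissue genes 6 were lower in the pituitary (22.5% of all tested genes were), or 10 without brain replicate 2, with a median of -1.57. With brain replicates 3 and 4 left out 2 were higher and 3 were lower. With brain replicates 1 and 2 left out all 11 were lower. The endothelial receptor gene kdr (-2.25 ± 0.35) and the contractile gene acta2 (-4.11 ± 0.46) did not overlap between groups. The collagen gene col1a1b was 23.4, 8.01, 533 and 488 CPM in the brain against 18.2 to 34.8 in the pituitary, and its call (-3.30, adjusted p = 0.042) was lost without brain replicate 3 (-2.66, adjusted p = 0.091), without brain replicate 4 (-2.82, 0.084) and without any 1 pituitary replicate (adjusted p of 0.084 to 0.10). With brain replicates 3 and 4 left out it was 0.70 higher in the pituitary and uncalled. The col1a1a gene (-2.41, adjusted p = 0.12) and the tight-junction gene cldn5a (-0.87) were not called. Without brain replicate 3 the former was -1.70, and without brain replicate 2 both were called (-2.81 and -1.05).

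**Figure D4:**
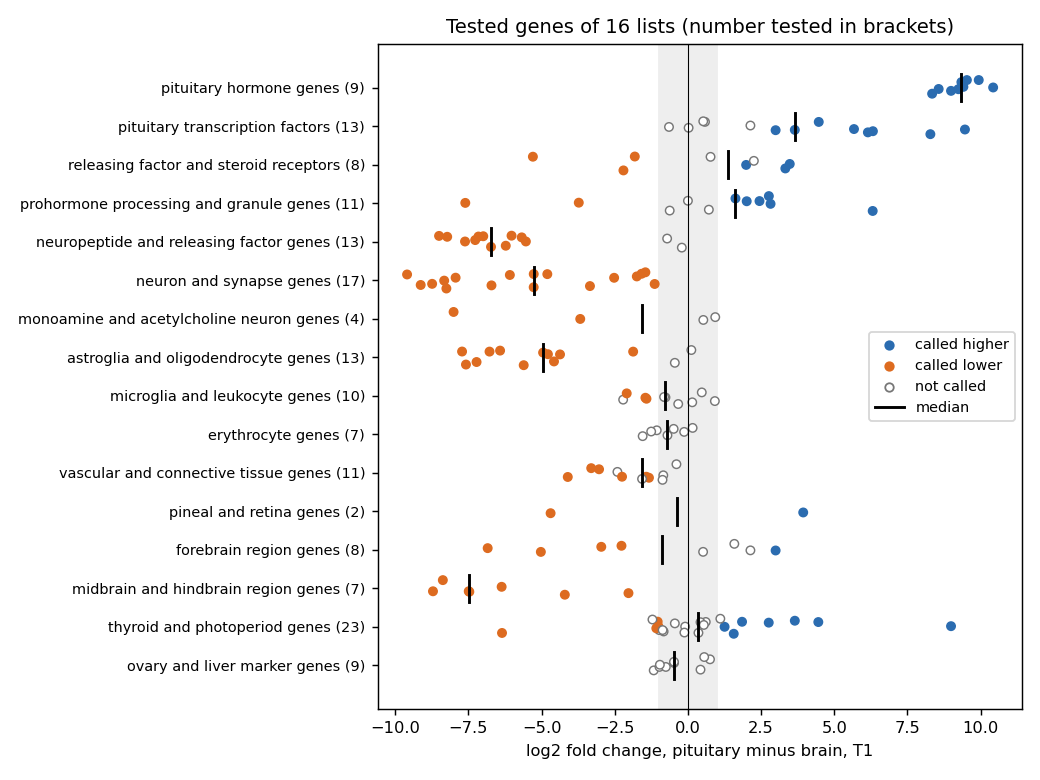
Log2 fold change, pituitary minus brain at T1, of the tested genes of 16 lists, with filled points for called genes, open points for uncalled ones and a bar at the median. Hormone genes lie at 8.35 to 10.43, neuron and synapse genes and neuropeptide genes lie at or below -0.21, and erythrocyte and ovary and liver markers hold no called gene.

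Genes that pattern brain regions came next. All 7 tested midbrain and hindbrain genes were lower in the pituitary, beside 22.5% of all tested genes, with a median of -7.47. Of the 18 entries of this list 11 fell below the filter on low counts, and 8 gave no count in any pituitary library. A gene near 0 in the gland passes that filter only through the brain libraries. For such members a lower call was nearly fixed in advance. The zinc finger gene zic2a, of dorsal midbrain and cerebellum, was 62.8, 571, 107 and 89.5 CPM in the brain and 0.810 to 1.63 in the pituitary (-7.49, and -6.22 without brain replicate 2). The midbrain boundary gene en2a was 12.1, 68.9, 11.2 and 4.75 CPM (-8.71, and -7.31 without brain replicate 2), zic1 went from -6.37 to -4.76 without that library, and the call of cbln12 (-8.37) was lost without it (-2.71, adjusted p = 0.050) and without any 1 pituitary replicate (0.056 to 0.061). Replicate 2 was thus the highest brain library for all 4 genes.

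Of 8 tested forebrain genes 4 were lower in the pituitary and 1, six3a, was higher, where 22.5% and 13.8% of all tested genes were. Their median was -0.88, and without pituitary replicate 1 only 2 were lower. With brain replicates 3 and 4 left out 4 were higher and 3 were lower. With brain replicates 1 and 2 left out 2 of 11 tested were higher and 7 were lower. The hypothalamic factor gene otpa was 21.8, 6.33, 26.9 and 25.2 CPM in the brain and 0.0957 to 0.214 in the pituitary (-6.84 ± 0.56). Only 2 pineal and retina genes were tested. The arrestin gene saga was higher in the pituitary by 3.94 ± 0.71 log2 units at 1.07 to 2.87 CPM, and the melatonin synthesis gene asmt2 was lower (-4.69 ± 0.34), at 0.468 to 0.718 CPM against 9.38 to 20.5.

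Genes that carry day length and thyroid hormone signals were looked at next, since T1 is the state from which long days begin. Of 23 tested members 7 were higher in the pituitary, 4 were lower and 12 were not called, beside 36.4% of all tested genes called, and the median was 0.36. The lower ones numbered 2 without brain replicate 4 or pituitary replicate 1 or 2, and 1 without pituitary replicate 3. The 7 include tshba and eya1, described above. Deiodinase 2, encoded by dio2, turns thyroxine into the active hormone, and it stood at 43.2, 24.1, 63.3 and 13 CPM in the pituitary against 5.01, 2.54, 6.71 and 6.999 in the brain (2.76 ± 0.52, edgeR adjusted p = 0.0025). The ranks of dio2 and tshba among the 4 pituitary libraries were the same, with replicate 3 highest and replicate 4 lowest. The hormone genes prl and glha2 were also highest in replicate 3 and lowest in replicate 4, and a link between dio2 and tshba was not tested. The thyroxine transporter gene slco1c1 was 31.5, 28.1, 26.2 and 33.7 CPM against 8.85, 3.74, 9.35 and 11.3 (1.85 ± 0.31).

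The opsin gene tmtops2b, of a family expressed outside the eye in fish, was 9.68, 10.4, 4.83 and 11.6 CPM in the pituitary and 1.04, 0.224, 0.209 and 0.214 in the brain (4.46 ± 0.61; 5.37 without brain replicate 1). The melatonin receptor gene mtnr1aa was 0, 0, 0.0389 and 0 CPM in the pituitary and 1.87, 0.719, 1.22 and 1.04 in the brain (-6.35 ± 0.74; -8.21 without pituitary replicate 3, which held its single count; ratio 103, interval 18.2 to 4079). Other genes of thyroid hormone handling were not called or lay near the thresholds. Deiodinase genes dio1 (-1.21 ± 0.50, adjusted p = 0.069) and dio3b (0.43 ± 0.71; 1.17 without brain replicate 4) were not called, nor was the thyroid hormone-binding crym (-0.86 ± 0.40). Without brain replicate 1 both dio1 (-1.49) and crym (-1.08) were called, and without brain replicate 2 dio1 was (-1.42). The dio1 gene was also called by DESeq2 (adjusted p = 0.030) and edgeR's exact test (0.046), and with scaling by totals (0.016, with crym at 0.021) and on the log2 values (0.037). The amino acid and thyroid hormone carrier gene slc16a10 was called at -1.03 ± 0.32, but not without brain replicate 4 (-0.78) or without pituitary replicate 1, 2 or 3 (adjusted p of 0.052 to 0.065).

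The called clock genes lay close to the fold threshold. The circadian activator gene npas2 was higher in the pituitary by 1.57 ± 0.37 log2 units and the repressor gene per2 by 1.25 ± 0.38 (edgeR adjusted p = 0.023), the latter not called without brain replicate 1 (adjusted p = 0.057) or pituitary replicate 3 (0.058). The partner gene clocka was lower (-1.08 ± 0.20), and missed the fold threshold without brain replicate 2 (-0.96) or pituitary replicate 3 (-0.98). The repressor gene bhlhe41 was lower (-1.01 ± 0.34), a call lost without brain replicate 4 (-0.57), brain replicate 1 or any 1 pituitary replicate (adjusted p of 0.054 to 0.094 over these). The repressor gene per3 was 35.5, 40.4, 47.1 and 39.3 CPM in the pituitary and 12.4, 14.5, 9.14 and 39.2 in the brain, and was not called (1.11 ± 0.42, adjusted p = 0.054), but it was without brain replicate 4 (1.76, adjusted p = 3.0e-04). For per3 the adjusted p also passed by DESeq2 (0.023), edgeR's exact test (0.028), RLE scaling (0.049) and a fit over 32 libraries (0.022). The remaining members per1b (0.54), dbpb (0.61), ciarta (0.36), arntl1a (-0.09), bhlhe40 (-0.12), bmal2 (-0.45), nfil3 (-0.83) and opn3 (-0.98) were not called. With libraries scaled by totals nfil3 was called (-1.28, and -1.13 on the log2 values), and opn3 was without brain replicate 2 (-1.31).

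The genes with the largest differences were then taken without regard to any list, as 12 each way. They were called and non-overlapping, with a mean of at least 10 CPM in the higher tissue and a symbol other than a placeholder. Only 9076 (26.9%) of tested genes had such a symbol, so LOC100136491 (log2 fold change 10.35) and LOC100169856 (10.22), among others, were not ranked. On the pituitary side the 12 genes were s100z, smtlb, epdl2, si:ch211-119o8.4, krt1-c5, pomca, glha1, lhx3, scpp1, glha2, prl and s100s, at log2 fold changes of 9.30 to 10.92. The calcium-binding gene s100z gave 1999 counts over the 4 pituitary libraries and 1 over the brain libraries, a ratio of 3174 after scaling with an exact 95% counting interval of 569 to 125425. Its relative s100s gave 1444 and 3 counts, a ratio of 764 (261 to 3710). The ependymin-like epdl2 was 3637, 3500, 2240 and 2238 CPM in the pituitary and 2.04, 1.53, 2.43 and 2.86 in the brain, so this relative of epd had the reverse tissue. The keratin gene krt1-c5, of epithelial cells, reached 62.6 ± 4.2 CPM (SD, n = 4) in the gland (9.98, and 9.32 without brain replicate 2), and the difference of s100z was 12.34 without brain replicate 1.

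On the brain side the 12 genes were sst6.1, cabp7b, barh1, slc17a6a, nfm, calb1, pnoca, anfc1, vsnl1b, nefl, kctd4 and en2a, at log2 fold changes of -8.71 or below. The somatostatin gene sst6.1 gave no count in the pituitary and 1378 in the brain, at 12.3, 4.397, 5.53 and 21.0 CPM, which is at least 336-fold higher against a floor of 3 counts over the 4 pituitary libraries. The calcium-binding cabp7b and calb1 gave 1 and 2 counts in the pituitary against 2089 and 1889 in the brain, ratios of 1316 (exact 95% interval 236 to 51992) and 595 (164 to 4916). The neuronal calcium sensor gene vsnl1b was 1.11, 1.15, 1.48 and 0.980 CPM in the pituitary and 623, 818, 245 and 388 in the brain (-8.77 ± 0.49), and the natriuretic peptide gene anfc1 was 26.6, 85.5, 10.1 and 55.7 CPM in the brain (-8.79 ± 0.86). The homeobox gene barh1 (-9.22) was 69.5 CPM in brain replicate 2 and 1.15 to 10.7 in the others, and became -7.20 without it. Its 3 pituitary counts against 4814 gave a ratio of 1011 (346 to 4902). The gene kctd4, named for a potassium channel tetramerization domain, (-8.73) was 130 CPM in brain replicate 4 and became -6.40 without it. The nociceptin gene pnoca gave 3 counts in the pituitary against 2313 in the brain, a ratio of 486 (166 to 2356). Without the pituitary library that held most of their few counts, the fitted values were -11.86 for cabp7b (replicate 4), -11.48 for calb1 (replicate 3) and -9.81 for pnoca (replicate 2), against -9.98, -8.84 and -8.79 with all.

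Among the 10 genes with the most counts in the brain, epd (mean 6.72% of counts) and epd2 (2.14%) came first through replicates 3 and 4. Both were called, at -7.77 ± 1.91 and -7.94 ± 1.99 log2 units (edgeR adjusted p = 0.0089 and 0.0098), and at -6.90 and -7.06 without brain replicate 3. With brain replicates 3 and 4 left out epd was -1.59 (adjusted p = 0.026) and epd2 -1.25 (0.076, not called). With the replicate number as a block neither epd nor epd2 was called. The next were LOC106600490, LOC106583543 and LOC106605072, with means of 0.771%, 0.600% and 0.434% and each lowest in brain replicate 4, followed by the brain creatine kinase gene kcrb (0.369%), the exocytosis gene sn25a (0.269%) and mbpa (0.261%). LOC106583543 differed by -7.29 with all libraries and by -6.62 without brain replicate 1. LOC106578378 (0.324%) was 6874 and 3712 CPM in brain replicates 3 and 4 and 580 and 611 in replicates 1 and 2, and its call (-2.41) was lost without brain replicate 3 (-1.54) or 4 or any 1 pituitary replicate (adjusted p up to 0.083). LOC100136352, listed with the synonym actb for beta-actin, took 0.303% and did not differ by the test (-0.15 ± 0.18, adjusted p = 0.52).

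The T1 calls were set beside the same comparison in the fish sampled on long days, which shares no library with T1. There 37.0% of tested genes were called at T2, 35.7% at T3 and 30.3% at T4. Of the 12275 genes called at T1, 9177 (74.8%) were called in the same direction at T2, 10078 (82.1%) at T3 and 8563 (69.8%) at T4, which is 71.5%, 83.4% and 84.0% of the calls of those times. At all of T2, T3 and T4 7320 (59.6%) were called in the same direction. Only 9 were called in the opposite direction at any later time, among them the retinoid enzyme gene dhrs3, at 1.57 at T1, -1.57 at T3 and -1.91 at T4. Whether the differences between time points exceeded chance was not tested.

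The hormone genes kept log2 fold changes of 8.85 or more at each later time. For pomca they were 9.31, 9.23 and 9.16 at T2, T3 and T4, for fshb 9.45, 9.16 and 9.01, and for lhb 10.42, 8.85 and 9.28. Among all tested genes 8080 of 34736 were called lower at T2, 7324 of 33823 at T3 and 6281 of 33646 at T4. Neuron and synapse genes had 12 of 16 tested members called lower at T2, 14 of 16 at T3 and 12 of 16 at T4. The neuropeptide list had 9 of 11, 9 of 11 and 5 of 8 called lower, with 1 called higher each time. The higher member was cart1 (3.42, 2.43 and 3.73), which was not called at T1. The pair pcsk2 (6.29, 5.74 and 5.62) and pcsk1 (-3.94, -3.32 and -4.85) recurred, as did chga (2.96, 2.07 and 2.50) and chgb (-7.37, -7.32 and -7.45). Others did not recur at each time, among them sstr1a, not called at T2 (-1.66, adjusted p = 0.12) or T4 (-2.55, 0.097), and scg2b, not called at T4 (0.92, 0.14). For dio2 the differences were 3.89, 3.53 and 4.64, and for tmtops2b 4.73, 3.71 and 3.60. Erythrocyte genes, uncalled at T1, were called lower in the pituitary for 6 of 7 at T2, 4 of 7 at T3 and 1 of 7 at T4. Of ovary and liver markers 2 of 10 were higher at T2, 2 of 7 lower at T3 and 1 of 9 lower at T4. Among all tested genes 4761 of 34736 were higher at T2. The ovary and liver counts and the erythrocyte count at T4 were thus near the shares of all tested genes. Ependymin was spread unevenly over the later brain libraries too, at 12.8% to 22.5% of counts in the 4 libraries of T2, while of the 4 libraries of T3 and of T4 the lower pair stood at 0.0585% and 0.0711%, and at 0.0209% and 0.0432%, and the higher pair at 18.5% and 18.6%, and at 10.6% and 29.6%.

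**Figure D5:**
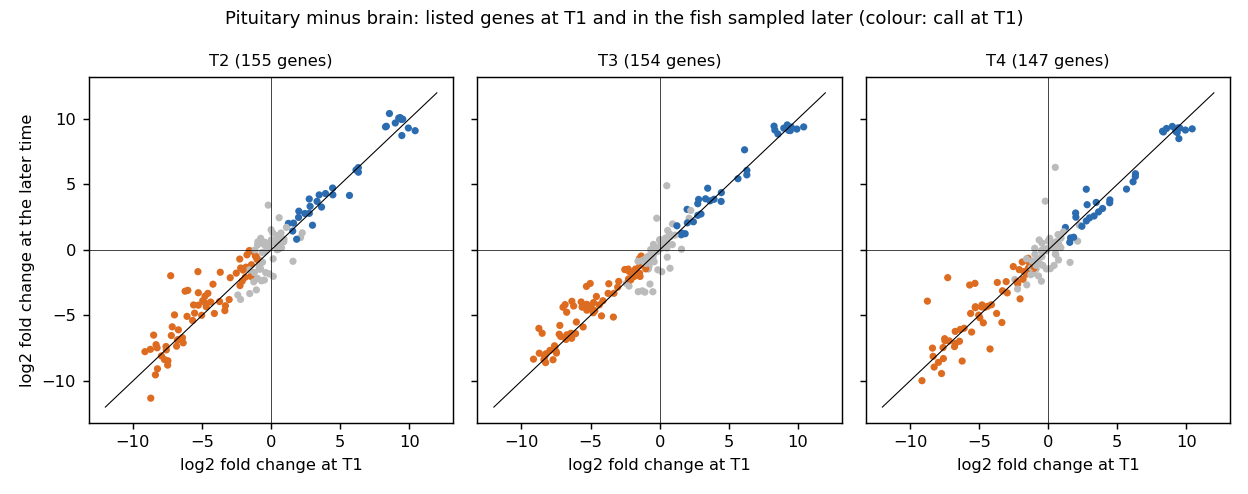
Log2 fold change, pituitary minus brain, of the listed genes at T1 (horizontal) against T2, T3 and T4 (vertical), with the line of equal values and colours for the call at T1, for 155, 154 and 147 genes tested at both times. Hormone genes sit at the upper right in each panel, and none of the listed genes called at T1 has the opposite sign at a later time at which it was tested.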

How the data were processed

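The authors mapped paired-end messenger RNA reads to the ICSASG_v2 assembly with TopHat2 2.1.1, and HTSeq 0.7.2 counted uniquely mapped reads on exons with strand set to reverse, so reads shared by near-identical copies were dropped. The deposited count table holds raw counts. The deposited log2 values equal log2(CPM + 1) of genes with at least 10 counts in all. All columns were mapped to samples from their titles.

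The 8 T1 libraries were fitted with edgeR 4.0.16 (R 4.3.3; filterByExpr, TMM, quasi-likelihood F test), and T2, T3 and T4 likewise; the test was tried on simulated data. n counts libraries, 4 a group, labelled biological replicates. Alternatives were DESeq2 1.42.0, RLE and other scalings, limma 3.58.1 on log2 values, glmTreat, other filters, a replicate block, each library left out, and, after seeing the data, brain replicates 1 and 2 or 3 and 4 only. Symbols came from RefSeq (Ssal_v3.1) for 91.7% of tested genes; LOC numbers counted as placeholders, and no coordinates are given since the assemblies differ. A floor of 3 counts was used. Matching by gene description and a promoter search were planned but not run, since the reference table holds neither. Members and lists were chosen with earlier results of these data known. Named genes were the 12 most different each way, the 10 with the most counts per tissue, listed genes of high count or with a call against most of their list, and the thyroid and photoperiod list. Intervals cover counting error only.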

Additional observations from a re-analysis of the deposited data

Results flagged for a closer look

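In 31 of 272 groups of 4 values examined, 1 library lay far from the other 3 by Dixon's test at the 95% level. For normal values that level lets about 1 in 20 groups pass by chance. The groups here share libraries, and some genes were picked by their values, so whether 31 exceeds chance was not tested. Values are CPM unless said otherwise.

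Brain replicate 2 had 51.9 M counts, against 23.2 to 27.3 in the others. It was the high library for cbln12 (950), zic2a (571), penkb (163), zic1 (127), barh1 (69.5) and en2a (68.9), and the low one for smtlb (1.14), LOC100169856 (46.3) and LOC100510784 (18.4), where the others held 2.56 to 2.64, 123 to 124 and 47.8 to 50.2. For the low genes the raw counts differed far less than the CPM. In brain replicates 1 to 4 they were 74, 71, 76 and 74 for smtlb and 3557, 2899, 3575 and 3441 for LOC100169856. For LOC100510784 they were 1452, 1154, 1424 and 1339. Whether expression was lower in replicate 2 was not tested.

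Brain replicate 4 was high for camk2a (306), oxt (265), kctd4 (130) and the clock output gene dbpb (9.53), and low for nfm (125) and nefl (7.93). Brain replicate 3 was high for pmchl (129), nppal (37.0), nr5a1b (1.18) and ghsr (0.903). Brain replicate 1 was high for npy (26.7), pitx1 (1.42) and tmtops2b (1.04).

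In the pituitary, replicate 3 was low for pomca (109330, against 173915 to 187167) and chga (338) and high for LOC106607462 (17685). Replicate 1 was low for esr2a (9.34). Replicate 4 was high for adcyap1r1b (18.2), and replicate 2 for saga (2.87), pmchl (1.34) and zic1 (0.862).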

How the results depend on the processing

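Of 114 called genes named here, 99 kept their call under each alternative tried and each left-out library. The 12275 calls fell to 7767 under glmTreat, and fits that each left out 1 library gave 11628 to 12850, with 4386 to 5092 genes higher and 7242 to 8106 lower. Genes higher in the pituitary numbered 2938 with library totals, 2347 with limma on the log2 values, 2623 under glmTreat and 8017 by the adjusted p alone. Microglia genes called lower were 1 under glmTreat and 6 with brain replicates 3 and 4 only (3 to 5 with 1 library left out). Vascular genes called lower were 3 under glmTreat, 3 with brain replicates 1 and 2 only, and 11 with brain replicates 3 and 4 only (4 to 10). Forebrain genes called lower were 2 under glmTreat and 7 with brain replicates 3 and 4 only (2 to 4). Thyroid and photoperiod genes called lower were 7 with library totals, 1 under glmTreat and 2 with brain replicates 1 and 2 only (1 to 5).

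The later comparisons kept 12743 to 13274 (T2), 11382 to 12781 (T3) and 8491 to 13856 (T4) calls with 1 library left out. The other list counts ranged from 9 to 9 (hormones), 8 to 8 (transcription factors), 3 to 4 and 3 to 3 (receptors higher and lower), 6 to 6 (processing), 10 to 12 (peptides), 16 to 17 (neurons), 11 to 11 (glia), 6 to 9 (midbrain and hindbrain) and 6 to 8 (thyroid and photoperiod, higher).

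Direction turned in arntl1a (0.15) and bhlhe40 (0.22) with brain replicates 3 and 4 only, and ranged over -0.233 to 0.091 and -0.237 to 0.024 with 1 library left out; in dio3b (-0.365) with brain replicates 3 and 4 only; in ciarta with library totals (-0.095) and limma (-0.042); and in col1a1a (1.99) and col1a1b (0.70) with brain replicates 1 and 2 only. The sign of cart1 also turned with brain replicates 3 and 4 only (2.51). The causes were not tested.

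The study describes 4 fish at each time point, so both groups are read as coming from the same fish, which the main test did not pair. The sample titles number the fish 1 to 4 in each tissue without stating that same numbers are the same fish. Deviations of same-numbered libraries correlated by 0.085 to 0.143 at T1. A replicate block gave 11805 calls at T1 (4838 higher, 6967 lower) and 12688, 11163 and 8260 at T2, T3 and T4, and 3 vascular genes called lower. Under it 8 named genes lost their call, epd (-5.24, adjusted p = 0.147), epd2 (-5.15, 0.182), oxt, pmchl, cbln12, col1a1b, bhlhe41 and LOC106578378, and esr2a (3.30, 0.044) and per3 (1.35, 0.035) gained one. Of 21 named genes without a call, with cart1, scg2 and ptprn2 not included, 10 gained one under some alternative or left-out library.

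With 4 libraries a group and a brain of varying regions, some calls near the fold threshold, such as those of per2, clocka and bhlhe41, depended on single libraries. The deposited log2(CPM + 1) values understate differences of genes with low CPM. Fitted fold changes of genes with few or no counts in 1 tissue are uncertain in size and can exceed what the counts bound. For sst6.1, with no pituitary count, the fit gave -11.35, while the bound was at least 336-fold.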

Other observations

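The following genes were picked after their values were seen, for being far higher in the pituitary, so they stand for no wider group. The epithelial factor gene elf3 was 30.3, 34.6, 34.9 and 30.9 CPM in the pituitary and 0.0691, 0.0480, 0.209 and 0.0357 in the brain (log2 fold change 8.53 ± 0.41; 9.20 without brain replicate 3). The junction genes cldn3c (7.24 ± 0.63) and lsr (6.05 ± 0.56; 6.83 without brain replicate 3), the membrane protease gene st14b (6.81 ± 0.43) and its inhibitor spint1a (8.49 ± 0.45) were likewise higher in the pituitary and did not overlap the brain. Peptide-related genes outside the lists were crhbp, whose protein binds corticotropin-releasing hormone, at 872, 923, 414 and 769 CPM against 13.1, 6.88, 10.3 and 4.75 (6.41 ± 0.45), and the gastrin-releasing peptide gene grp at 79.9, 88.3, 66.7 and 70.1 against 0.933, 0.639, 0.695 and 0.786 (6.64 ± 0.20). The proneural factor gene ascl1a, needed for pituitary formation in zebrafish, was 167, 164, 148 and 129 CPM against 1.49, 0.943, 1.15 and 1.25 (6.98 ± 0.21).

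On the brain side, picked in the same way, further natriuretic peptide genes stood beside anfc1, with nppcl at 27.0, 126, 13.1 and 130 CPM (-8.48 ± 0.96) and nppal at 3.59, 0.799, 37.0 and 6.18 (-8.35 ± 1.58; -6.59 without brain replicate 3; ratio 292 with an exact interval of 99.8 to 1419 from 3 pituitary counts). The intermediate filament genes prph (226, 279, 261 and 9.25 CPM) and neff1 (573, 569, 392 and 46.4) were lowest in brain replicate 4, as nefl and nfm were.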
